A study of Bos taurus with 24 samples.

Results

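The transcripts of 12 non-injected bovine metaphase II oocytes were described here, out of the 24 single oocytes of the series. Their columns were chosen by title, and no oocyte of the injected group entered any value below. The study asked how injection of a non-specific siRNA affects the oocyte, and the 12 oocytes served as its non-injected controls. They came from cattle ovaries collected at a slaughterhouse, were freed of their cumulus cells, and carry the genotype label wild type. All 12 were held for 16 h in roscovitine, an inhibitor of cyclin-dependent kinases that delays meiotic resumption, and were then cultured for 22 h in maturation medium, and no oocytes matured without the inhibitor were analysed here. The labels do not tie an oocyte to its donor animal, and the spread between oocytes therefore includes any spread between animals. With 1 group of single cells there was no comparison to test, and all values are descriptions.

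A metaphase II oocyte has condensed chromosomes on a spindle, is arrested until fertilisation and makes almost no new RNA. It lives on mRNAs that were made and stored during growth, of which a part is deadenylated and removed during maturation while another part is polyadenylated and translated. The RNA of such a cell is therefore a record of what was stored and what was kept.

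CEL-seq2 primes cDNA at the poly(A) tail and tags each molecule with a random barcode, the unique molecular identifier (UMI), and amplified copies of a tagged molecule are counted as 1. The authors deposited the result as RPM, reads scaled to the same total in each library, so each value is a share of the RNA captured from 1 oocyte. One tag is counted per molecule at its 3′ end, so the RPM values were not divided by transcript length. The UMI counts behind the RPM ran from 134080 in oocyte 11 to 415554 in oocyte 8 (median 288778), and 1 UMI was worth 7.35 RPM in oocyte 11 and 2.27 RPM in oocyte 8. Between 9152 (oocyte 11) and 11501 (oocyte 9) of 17071 rows were above 0. A transcript with a short poly(A) tail may be primed less, and tail length was not measured.

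The oocyte identity of the samples was checked on 6 marker genes, of which 5 matched a row and were above 0 in all 12 oocytes. KPNA7, an importin alpha of oocytes and early embryos, was by far the most abundant of them, with 3813, 4308 and 5433 RPM as the lowest, median and highest oocyte. H1FOO, the linker histone of the oocyte, had 485, 688 and 969 RPM. The growth factor GDF9, which the oocyte secretes towards its cumulus cells, had 190, 358 and 487 RPM, and its partner BMP15 had 66.1, 152 and 178 RPM. NLRP5, a member of the subcortical maternal complex that early cleavage depends on, had 78.2, 159 and 241 RPM. In the order of all rows by mean RPM, KPNA7 ranked 10, H1FOO 213, GDF9 563, NLRP5 1418 and BMP15 1516, and the ranges of NLRP5 and BMP15 overlapped. ZP3 was not analysed here. The zona pellucida genes ZP2 and ZP4 averaged 1839 ± 441 RPM and 654 ± 192 RPM (SD, n = 12).

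Markers of other cells took a small share of the RPM, but not every one was scarce. The 22 matched genes of the cumulus and granulosa list together took 0.0515% ± 0.00538 of the RPM (SD, n = 12; range 0.0438% to 0.0591%), and 5 of them, LUM, FST, CYP11A1, AMH and AREG, were at 0 in all 12 oocytes. STAR, which moves cholesterol into mitochondria, led that list with 263 ± 46.0 RPM, above the means of NLRP5 and BMP15, followed by the hyaluronan synthase HAS2 with 87.4 ± 10.2 RPM and INHBA with 36.5 ± 12.3 RPM. The granulosa genes FSHR and NR5A1 had a UMI in 1 oocyte each, whereas 8 of the 22 rows were above 0 in all 12 oocytes. Of all 17071 rows, 6430 were. The share of this list was close to that of the oocyte secreted factors, 0.0506%. The 8 matched blood and endothelial genes took 0.0133% ± 0.00306, with CSF1R, the receptor of a macrophage growth factor, at 62.6 ± 22.5 RPM and the leukocyte gene PTPRC at 0 in every oocyte. HAS2 ran from 74.2 to 113 RPM, a small spread among genes of like mean RPM and below that from counting UMIs alone.

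**Figure D1:**
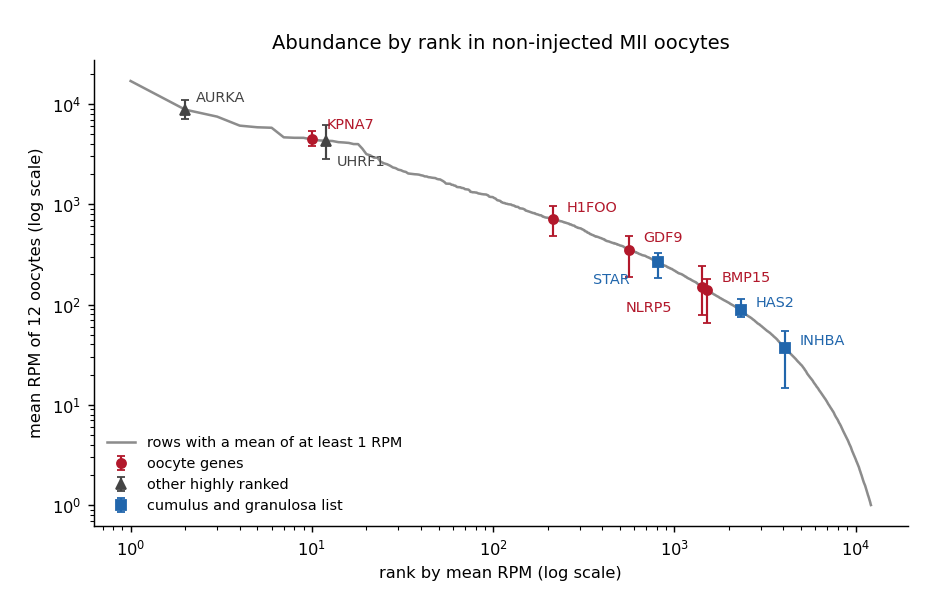
Mean RPM of each row (vertical, log scale) against its rank (horizontal, log scale) over 12 non-injected oocytes, for rows with a mean of at least 1 RPM; bars on the named genes run from the lowest to the highest oocyte. KPNA7 at rank 10 lies far above the other oocyte genes, and STAR of the cumulus and granulosa list lies above NLRP5 and BMP15, with HAS2 and INHBA of that list below them.

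A small number of transcripts made up a large part of the message. The 100 highest rows held 24.3% ± 1.71 of the RPM (SD, n = 12), the 20 highest held 10.9%, and 526 rows ordered by mean RPM were enough for 50%. To reach 90% took 3693 rows, and 95% took 5267. Of all rows, 6430 were above 0 in all 12 oocytes, 8786 in 1 to 11 of them and 1855 in none. Only 121 rows had a mean of at least 1000 RPM, 2070 of at least 100 RPM and 7114 of at least 10 RPM. Detection was nearly complete among abundant transcripts, since 3453 of the 3455 rows with a mean of at least 50 RPM were above 0 in every oocyte. Both exceptions, ENSBTAG00000001219 and ALDH1A1, were at 0 in 1 oocyte and reached 225 and 162 RPM in another.

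The highest row with a symbol was AURKA, the Aurora A kinase of spindle poles, with 7002, 8663 and 10835 RPM as the lowest, median and highest oocyte. It never ranked lower than 4 in any oocyte, and it was the highest row of all in oocytes 10 and 11. In the other 10 oocytes the first place was held by ENSBTAG00000043570, a row that the table lists without a symbol, at 5782, 15273 and 31034 RPM. That row moved with the sum of the mitochondrially encoded mRNAs described below (r = 0.796, rho 0.664, and r = 0.651 without the 2 oocytes farthest from the median). Some nuclear genes had a higher r with that sum, such as YES1 at 0.839. ENSBTAG00000043570 filled up to 88.8% of the 4048 possible UMIs, so its upper values rest on a correction for UMI saturation. The correction was found from the deposited values and is not described in the sources used here. Behind this row and AURKA came ENSBTAG00000043567 (7480 ± 3374 RPM), the mitochondrially encoded ATP6 (6081 ± 2515 RPM), ENSBTAG00000025644 (5856 ± 727 RPM) and ENSBTAG00000012184 (5791 ± 723 RPM). The order within the 20 highest rows was loose. For only 3 of its 19 neighbouring pairs was the mean difference within an oocyte larger than the SD of that difference, and for the other 16 pairs it was not.

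Mitochondrially encoded genes filled 7 of the places of the 20 highest rows with a symbol. AURKA was followed by TACC3, an Aurora A partner on spindle microtubules (4129 ± 1134 RPM), the kinetochore protein CENPF (2559 ± 837 RPM) and the centromere protein CENPV (2290 ± 332 RPM). UHRF1, which directs maintenance methylation of DNA, had 4296 ± 1047 RPM, and the replicative ligase LIG1 had 2185 ± 378 RPM. The ribosomal protein RPS2 (2506 ± 527 RPM) and the translation factor EIF5B (2425 ± 443 RPM) were the highest of the translation apparatus. ID3, an inhibitor of basic helix-loop-helix factors, had 2328 ± 380 RPM, and THAP9 had 2212 ± 315 RPM. The others were KPNA7 and the rows named TMSB4X and TMSB4Y for thymosin beta 4, which binds actin monomers.

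Of 435 pairs among the 30 highest rows, 10 had a Pearson r of at least 0.98 between oocytes, and these were all pairs of just 5 rows. The rows were TMSB4X, TMSB4Y, ENSBTAG00000037470, ENSBTAG00000046117 and ENSBTAG00000005414, at mean levels of 4088, 4649, 3982, 3978 and 3581 RPM. Together they took 2.03% ± 0.526 of the RPM (SD, n = 12), lowest at 1.21% in oocyte 6 and highest at 2.69% in oocyte 8. For TMSB4X against TMSB4Y, r was 0.986 (rho 0.951; r = 0.976 without the 2 oocytes farthest from the median). Near-identical copies can share reads, which would make the level of each of these rows uncertain. Their sequences were not compared, and sharing of reads was not tested. The adjacent pair ENSBTAG00000025644 and ENSBTAG00000012184, though alike in mean level, did not move together (r = -0.053, rho -0.042; r = 0.246 without the 2 farthest oocytes).

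Gene lists for known functions of the oocyte were used to divide the RPM. The 36 lists held 2190 rows and 20.1% ± 1.04 of the RPM (SD, n = 12), so most of the message lay outside them. Rows without a symbol alone held 19.7% ± 0.953, in 3276 rows.

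Energy metabolism and translation took the largest listed shares. The 13 mitochondrially encoded mRNAs held 3.42% ± 1.05, from 2.23% in oocyte 1 to 5.68% in oocyte 2. Their nuclear partners in oxidative phosphorylation, 69 rows, held only 0.616% ± 0.0750, led by COX7A2L (773 ± 175 RPM) and the ATP synthase subunit ATP5J (645 ± 246 RPM). Cytosolic ribosomal proteins (51 rows) held 1.41% ± 0.166 and mitochondrial ribosomal proteins (71 rows) 0.430% ± 0.0335. Translation factors (54 rows) held 1.19% in oocyte 3 to 1.36% in oocyte 11 (SD 0.0483, n = 12), and their share had the lowest CV of the lists, 3.72%. EIF4A1, the helicase of the cap-binding complex, had 1701 ± 159 RPM.

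Protein turnover was the next large block. Ubiquitin conjugating enzymes and deubiquitinases (90 rows) held 1.06% ± 0.0690, with USP36 at 776 ± 220 RPM, UBE2Q1 at 642 ± 132 RPM and the neuronal and germ cell hydrolase UCHL1 at 618 ± 90.3 RPM. The proteasome (47 rows) held 0.905% ± 0.0888, led by the core subunit PSMA7 (1735 ± 513 RPM) and PSMD1 of the regulatory particle (1599 ± 272 RPM). The heat shock proteins and chaperonins (63 rows) held 0.560% ± 0.0521, with HSPA8, the constitutive Hsp70, at 669 ± 176 RPM.

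Genes that hold and release the metaphase II arrest were mostly detected in every oocyte, as were most rows averaging 10 RPM or more. Of those 7114 rows, 6283 were above 0 in all 12 oocytes, and of all 17071 rows, 6430 were. The 26 genes of maturation promoting factor and cytostatic factor were each above 0 in at least 1 oocyte, 22 of them in all 12, and held 0.565% ± 0.0334. CKS2, which binds cyclin-dependent kinases, led this list with 1405 ± 189 RPM, ahead of cyclin A2 (CCNA2, 744 ± 147 RPM), the kinase MAP2K1 of the MOS pathway (552 ± 85.7 RPM) and PLK1 (478 ± 166 RPM). The anaphase promoting complex and spindle checkpoint (21 rows) held 0.321% ± 0.0183, led by the checkpoint protein BUB3 (607 ± 126 RPM), the anaphase inhibitor FBXO5 (448 ± 122 RPM), UBE2S (448 ± 93.7 RPM) and the activator CDC20 (298 ± 51.0 RPM). RGS2, a regulator of G protein signalling, headed the list of growth signalling receptors and cAMP arrest with 1895 ± 210 RPM and a CV of 11.1%.

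Storage and removal of maternal mRNA formed a further block. The storage and repression list (20 rows) held 0.671% ± 0.0502, with the RNA-binding proteins IGF2BP3 (2128 ± 370 RPM), YBX2, which packs stored mRNA in germ cells (1605 ± 284 RPM), YBX1 (1273 ± 334 RPM) and ZAR1 (517 ± 151 RPM). Deadenylation and decay (25 rows, all above 0 and 24 of them in every oocyte) held 0.457% ± 0.0697. Of all 7114 rows averaging 10 RPM or more, 6283 were likewise above 0 in every oocyte. The highest members of the decay list are given next. Its highest members were ZFP36L1, which binds AU-rich elements (1401 ± 304 RPM), BTG4, the adaptor of the deadenylase in maternal mRNA clearance (1180 ± 456 RPM), and the deadenylase CNOT7 itself (623 ± 63.9 RPM). Poly(A) polymerases and binding proteins (9 rows) held 0.446% ± 0.0665, led by PAPOLG (1315 ± 302 RPM) and PABPC1 (1182 ± 336 RPM).

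The DNA methylation list (11 rows) held 0.668% ± 0.125, most of it UHRF1. TRIM28, a corepressor that guards imprints, had 1309 ± 289 RPM and the maintenance methyltransferase DNMT1 had 628 ± 113 RPM. Histones and their carriers (39 rows) held 0.740% ± 0.0745, led by SLBP2, which binds the stem-loop of histone mRNA (1050 ± 192 RPM), H3F3A (912 ± 173 RPM) and H1FOO. Cohesin and condensin (20 rows) held 0.416% ± 0.0730, with the core cohesin subunit SMC3 (730 ± 290 RPM) and its meiotic partner SMC1B (628 ± 177 RPM). Tubulins and kinesins (60 rows) held 0.751% ± 0.0401 and the actin cytoskeleton (28 rows) 1.11% ± 0.123, of which TMSB4X was the largest member. The level of TMSB4X, and with it this share, would be uncertain if it shares reads with the rows that moved with it.

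The lists specific to the oocyte were short. The subcortical maternal complex and related NLRP genes (9 rows, all above 0 in every oocyte) held 0.182% ± 0.0258, with a median over its rows of 150 RPM. The list was led by OOEP (501 ± 103 RPM), NLRP9 (411 ± 61.1 RPM) and TLE6 (255 ± 71.4 RPM). Detection in every oocyte was common at such levels, with 6283 of the 7114 rows averaging 10 RPM or more. Oocyte transcription factors (11 rows) held 0.0638% ± 0.0235, with SOX2 (275 ± 213 RPM), NOBOX (228 ± 65.1 RPM), LHX8 (57.9 ± 15.3 RPM) and FIGLA (38.4 ± 15.8 RPM), and 2 of the 11 rows were at 0 throughout. Oocyte secreted factors (6 rows) held 0.0506% ± 0.0121, nearly all of it in GDF9 and BMP15.

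**Figure D2:**
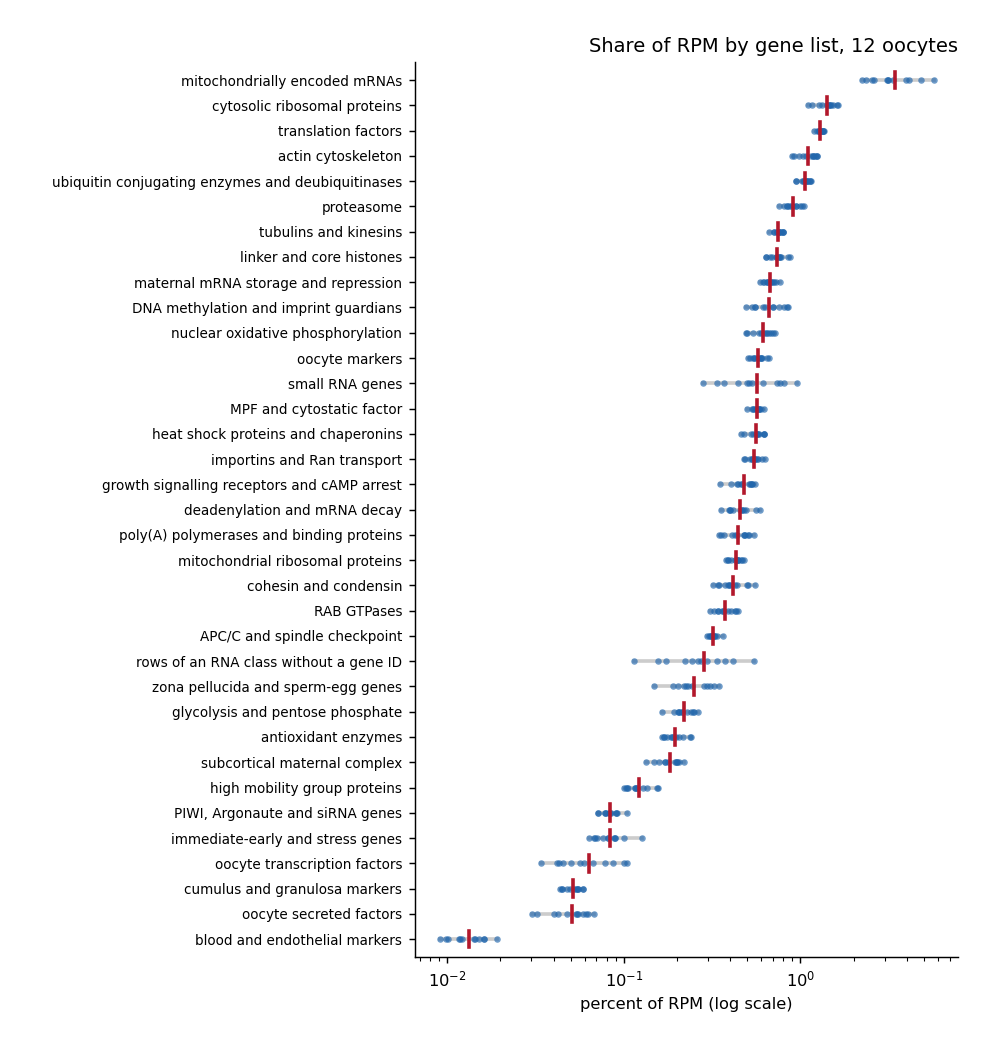
Percent of RPM (horizontal, log scale) held by each gene list in each of 12 oocytes; each point is 1 oocyte, the grey bar is their range and the red tick their mean. Mitochondrially encoded mRNAs take the largest share and spread from 2.23% to 5.68%, whereas translation factors stay between 1.19% and 1.36%.

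The spread between oocytes fell with abundance. The CV, the SD between oocytes as a percent of the mean, had a median of 57.1% for rows with a mean of 10 to 20 RPM, 31.6% for 50 to 100 RPM, 21.4% for 200 to 500 RPM and 17.7% for 1000 to 2000 RPM. Counting of UMIs alone would give 51.9%, 23.3%, 11.4% and 5.47% in those classes. The spread left after counting was taken out differed less, with medians of 23.6% for 10 to 20 RPM, 21.1% for 50 to 100 RPM and 16.9% for 1000 to 2000 RPM. Above 2000 RPM the median CV was higher again, at 24.4% for 35 rows, of which 7 are mitochondrially encoded genes with a symbol. For the 3455 rows that averaged 50 RPM or more, the median CV was 26.5%, against 17.7% from counting, and 273 rows (7.90%) had a CV below that of counting.

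**Figure D3:**
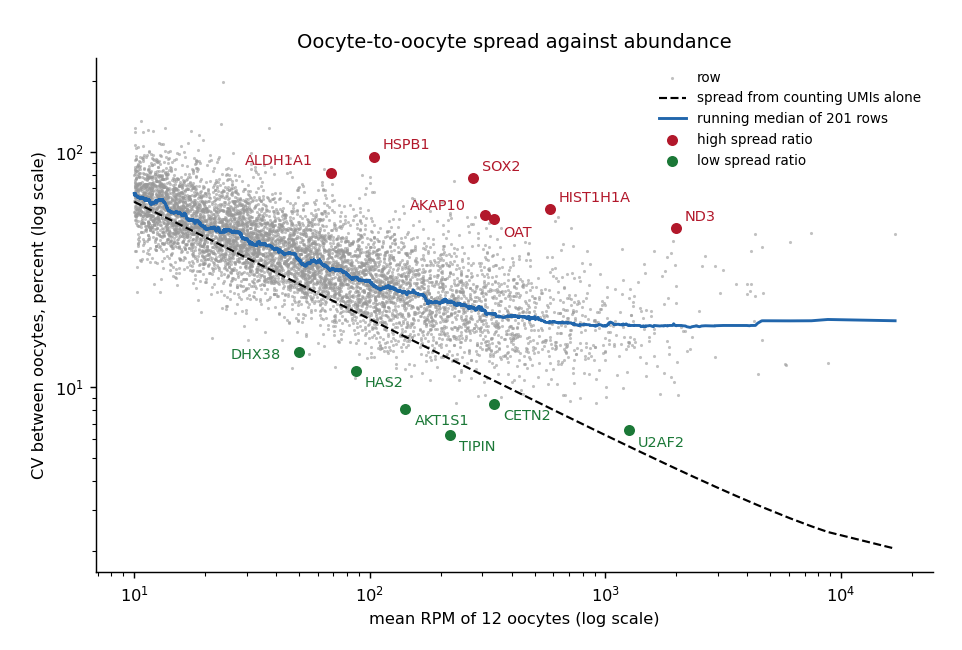
CV between 12 oocytes (vertical, log scale, percent) against mean RPM (horizontal, log scale) for rows averaging 10 RPM or more; the dashed line is the CV that counting UMIs alone gives and the blue line the running median over rows of like mean. SOX2, HSPB1 and HIST1H1A lie far above the running median, and TIPIN, AKT1S1 and HAS2 lie below the counting line.

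To compare genes of unlike abundance, each CV was divided by the median CV of the rows nearest in mean RPM. This spread ratio is about 1 for a typical gene by construction, and 10% of the rows were below 0.693 and 10% above 1.51. Of 3455 rows, 353 (10.2%) had a ratio of at least 1.5, 80 of at least 2, and 41 of at most 0.5. FBXL14 (ratio 1.501) was the last row inside the limit of 1.5 and ITFG2 (1.4997) the first outside it.

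The pluripotency factor SOX2 had one of the highest ratios, 3.54. It had 40.6, 176 and 629 RPM as the lowest, median and highest oocyte, and 5 oocytes (3, 4, 5, 7 and 11) were between 338 and 629 RPM while the other 7 were at or below 177 RPM. HSPB1, a small heat shock protein, also had a ratio of 3.54. Oocytes 1 and 11 were highest at 289 and 288 RPM, and oocyte 5, where SOX2 was highest, was lowest at 10.9 RPM. The linker histone HIST1H1A (ratio 3.01) had 253, 500 and 1491 RPM, with oocyte 3 the highest and oocyte 7 next at 820 RPM. ALDH1A1, which makes retinoic acid, had 0, 61.8 and 162 RPM, and its ratio was 2.58. AKAP10, an anchor of protein kinase A, had 93.7, 246 and 626 RPM (ratio 2.61), and the mitochondrial aminotransferase OAT had 157, 246 and 645 RPM (ratio 2.54), both highest in oocyte 4. The highest oocyte thus differed among most of these genes. Among rows with a symbol, the remaining places in the 12 highest ratios went to 4 rows of the small nucleolar RNA U3, 1 row of the spliceosomal RNA U2 and the mitochondrially encoded ND3.

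At the other end, TIPIN, which acts at the replication fork, had 196, 219 and 243 RPM. Its CV of 6.28% was below the 13.2% from counting and its ratio was 0.27, the lowest among rows with a symbol. The splicing factor U2AF2 had 1093, 1242 and 1373 RPM, and its CV of 6.55% was close to the 5.60% that counting gives. AKT1S1, a subunit of the growth kinase complex mTORC1, had 122 to 158 RPM, the centrosome protein CETN2 285 to 379 RPM and TPD52L2 244 to 314 RPM. The other members of the 12 lowest ratios were ZFAND3, the RNA helicases DDX59 and DHX38, HAS2, the membrane remodelling protein IST1, HEATR6 and the row named ZFY. For 11 of these 12, all but U2AF2, the CV was below that of counting, so their order is not resolved at this depth. Of the 3455 rows that averaged 50 RPM or more, 7.90% had a CV below that of counting.

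**Figure D4:**
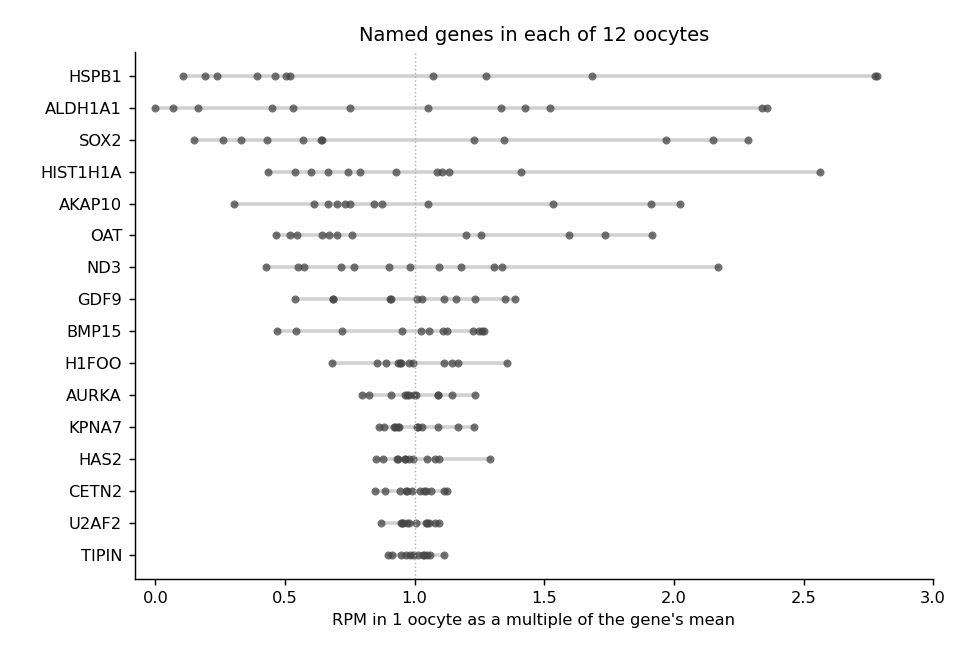
RPM in each of 12 oocytes as a multiple of the gene's own mean, 1 point per oocyte, for genes of high spread ratio (top), oocyte genes and AURKA (middle) and genes of low spread ratio (bottom). HSPB1 and ALDH1A1 run from near 0 to over 2.3 times their mean, while TIPIN and U2AF2 stay close to 1.

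Spread was uneven between gene lists. Of the 12 mitochondrially encoded rows with a mean of at least 50 RPM, 10 had a ratio of at least 1.5 and the median ratio was 1.88. The list of small RNA genes, which holds the U1, U2 and U3 rows, had a median ratio of 2.01, with 28 of its 32 abundant rows at 1.5 or more. Rows of an RNA class without a gene ID had a median ratio of 2.31 and all 9 were at 1.5 or more. Several protein-coding lists of the nucleus were closer to 1. The median ratio was 0.910 for 32 translation factors, 0.961 for 24 proteasome genes and 0.984 for 13 genes of the anaphase promoting complex and checkpoint. It was 1.01 for 31 genes of nuclear oxidative phosphorylation and 1.14 for 38 cytosolic ribosomal proteins. Some lists with few abundant rows were higher. Their median ratio was 1.27 for 6 PIWI, Argonaute and siRNA genes and 1.35 for 7 genes of glycolysis and the pentose phosphate pathway. It was 1.43 for 2 zona and sperm-egg genes and 1.55 for 4 immediate-early and stress genes. Of those 38 ribosomal protein rows 7 had a ratio of at least 1.5, among them RPS7 (834 ± 318 RPM), while RPLP0 (750 ± 104 RPM) had 0.75.

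The 353 rows with a ratio of at least 1.5 were grouped by Spearman correlation between oocytes. This gave 8 groups of at least 8 rows, which together held 230 of the 353. Since the groups were built from the same values, their existence is not a test. Each correlation below is over 12 oocytes that differ in depth, and RPM shares sum to a fixed total, so that a higher share of one set lowers the others.

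A pair of large groups ran in opposite directions. The first held 97 rows (79 with a symbol, mean rho 0.670 between them) and 2.38% ± 0.813 of the RPM (SD, n = 12). It included 26 of the 32 abundant small RNA rows (17 named U1, 7 named U3, 1 named U2 and SCARNA2), the ribosomal proteins RPS7, RPS21, RPS26 and RPL36, the respiratory chain genes NDUFA1, NDUFAB1, COX5A and ATP5C1, the zona gene ZP4, PLK1 and calmodulin (CALM2). WDR61 (65.1, 115 and 174 RPM as the lowest, median and highest oocyte) and several U1 rows were among the members closest to the group's profile. The second held 77 rows (67 with a symbol, mean rho 0.627) and 2.98% ± 0.878 of the RPM. Among its closest members were the chromatin remodeller ATRX (227, 355 and 725 RPM), the Golgi tether GOLGA4, CENPF (1215, 2736 and 4081 RPM), SMC3 and SRGAP1, and it also held BTG4, PABPC1, JUN, CDK2 and HIST1H1A.

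The profile of the first group, the mean of its rows each divided by its own mean, was 0.485 in oocyte 3, 0.497 in oocyte 1, 0.503 in oocyte 5 and 0.692 in oocyte 4, and was highest at 1.56 in oocyte 9. The second was 1.18, 1.44, 1.43 and 1.43 in oocytes 3, 1, 5 and 4, and was lowest at 0.617 in oocyte 8. Across the 12 oocytes the profiles had r = -0.934 (rho -0.923; r = -0.946 without oocytes 3 and 1, the farthest from the median). Both moved with depth to some degree. The first had r = 0.491 with the number of molecules (rho 0.643; r = 0.614 without the 2 farthest oocytes) and 0.593 with the number of rows above 0, and the second had r = -0.534 (rho -0.594; r = -0.591) and -0.650. The first profile was 1.16 in oocyte 11, the shallowest, and 0.692 in oocyte 4, the next shallowest. The part of depth, capture of RNA or the animal of origin in this pattern was not tested. The first principal component, with 24.1% of the variance of the 500 most variable rows, had r = 0.915 with the first profile (rho 0.909; r = 0.935) and r = -0.921 with the second (rho -0.874; r = -0.862). Both groups were drawn from highly variable rows, as were the 500, so this relation is largely fixed by that choice.

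**Figure D5:**
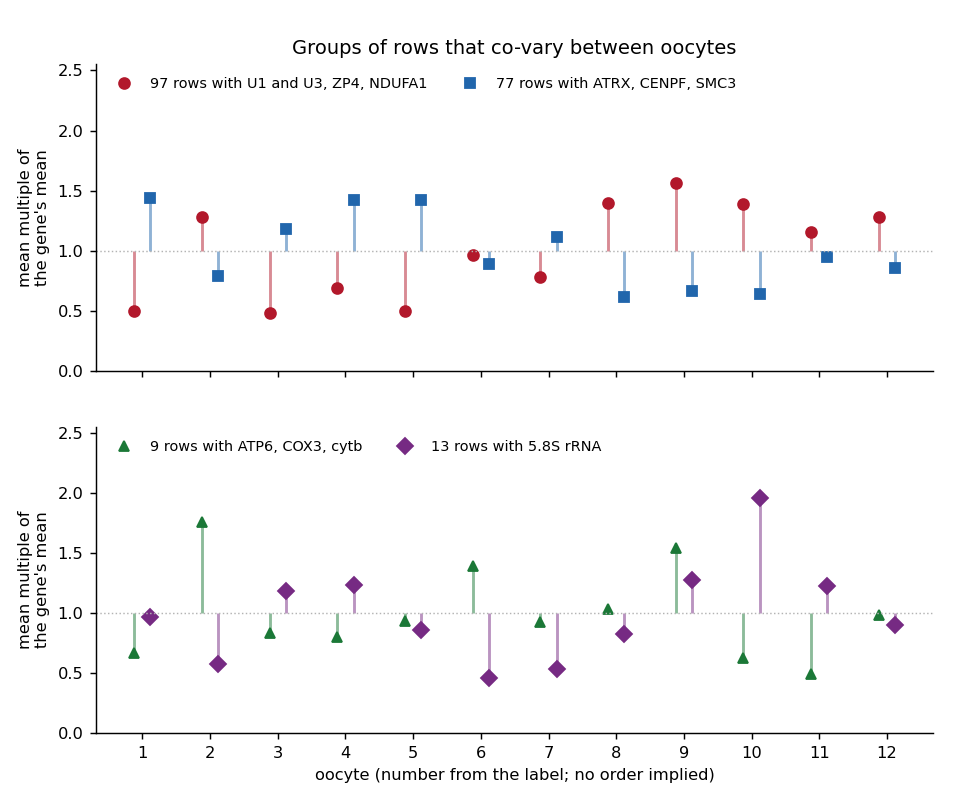
Profile of each co-varying group (vertical, mean over its rows of RPM divided by the row's own mean) in each of 12 oocytes (horizontal, by number, with no order implied); lines run from 1 to the value. In the upper panel oocytes 1, 3, 4 and 5 are low for the 97 rows and high for the 77 rows, and in the lower panel oocyte 2 is highest for the mitochondrially encoded group and oocyte 10 for the 5.8S group.

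The small RNAs of the first group had large amplitudes. Summed over 47 rows, U1, which marks the 5′ splice site, had 280, 1249 and 3043 RPM as the lowest, median and highest oocyte, and oocyte 1 was the lowest and oocyte 9 the highest. U3, which acts in ribosomal RNA processing, had 329, 1295 and 2737 RPM over 20 rows, again with oocyte 1 lowest and oocyte 9 highest. U2, the branch point RNA, had 45.5, 200 and 531 RPM over 34 rows. These RNAs have no poly(A) tail of the mRNA kind. Their rows share symbols, the sequences of the rows were not compared, and each row's level is uncertain. How these RNAs were primed was not tested.

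Of the 5 marker genes, GDF9 and BMP15 moved with the first group in these oocytes. The profile of the first group had r = 0.894 with GDF9 (rho 0.888; r = 0.840 without the 2 farthest oocytes) and r = 0.692 with BMP15 (rho 0.559; r = 0.806). For KPNA7 it was r = -0.473 (rho -0.350; r = 0.032), for NLRP5 r = 0.257 (rho 0.322; r = -0.140) and for H1FOO r = 0.241 (rho 0.357; r = 0.796). These 3 relations changed in sign or in size without the 2 farthest oocytes. Among the 2958 rows with a symbol that averaged 50 RPM or more, the genes most like GDF9 over the 12 oocytes were a U3 row (rho 0.958) and a U2 row (rho 0.937). H1FOO was most like VAMP3 (rho 0.951) and ACCSL (rho 0.902), and NLRP5 like PROSER1 (rho 0.930) and TSPAN5 (rho 0.853). BMP15 was most like UBE2K (rho 0.881, r = 0.855) and SGTA (rho 0.867, r = 0.762). KPNA7 was most like USB1 (rho 0.846, r = 0.763) and USP25 (rho 0.804, r = 0.609). Each gene was picked as the highest of 2958 rows over only 12 oocytes, so its rho is no test of a link with the marker.

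The shares of a few gene lists moved together or apart. Of 659 pairs of lists with no row in common, 23 had a rho of at least 0.8 and 11 of at most -0.8. The closest pair was cohesin and condensin with the poly(A) polymerases and binding proteins (rho 0.986, r = 0.921; r = 0.886 without the 2 farthest oocytes). Both were opposed to nuclear oxidative phosphorylation, with rho -0.944 each (r = -0.921 and -0.902; r = -0.839 and -0.844). Nuclear oxidative phosphorylation moved with the small RNA genes (rho 0.923, r = 0.884; r = 0.828) and with the zona and sperm-egg genes (rho 0.895, r = 0.871; r = 0.875). These shares include rows that define the opposed groups, among them 26 small RNA rows, 4 of oxidative phosphorylation, ZP4, SMC3 and PABPC1. Over the abundant rows outside the first group, the median rho with its profile was 0.44 for 27 rows of oxidative phosphorylation, -0.42 for 11 of cohesin and condensin, -0.55 for 5 of the poly(A) list and 0.077 for the 6 remaining small RNA rows, against 0.0 for all 3358 rows outside it. Further lists lay as far from 0 as these. The median was 0.48 for RAB GTPases, 0.48 for importins and Ran transport and 0.47 for the subcortical maternal complex. It was 0.44 for cytosolic ribosomal proteins and -0.62 for the DNA methylation list. Some lists lay nearer 0, such as tubulins and kinesins at -0.077 and histones at -0.11. In oocyte 1 cohesin and condensin took 0.557% and nuclear oxidative phosphorylation 0.493%, whereas in oocyte 9 they took 0.322% and 0.701%. The share of the proteasome was the one most tied to depth, with r = -0.839 to the number of molecules (rho -0.818; r = -0.735). The paired lists moved with depth too. With the number of rows above 0, r was -0.563 for cohesin and condensin and -0.638 for the poly(A) list. It was 0.521 for nuclear oxidative phosphorylation, 0.632 for the small RNA genes and 0.507 for the zona and sperm-egg genes. The part of depth in these pairs was not tested.

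Of the 12 abundant mitochondrially encoded rows, 6 fell into 1 small group. ATP6, ATP8, COII, COX3, ND4 and cytb clustered with ENSBTAG00000043567, ENSBTAG00000043570 and the nuclear kinase gene YES1 (9 rows, mean rho 0.764), and the group's profile was 1.76 in oocyte 2, 1.54 in oocyte 9 and 0.493 in oocyte 11. ATP6, a subunit of the ATP synthase, had 3203, 5329 and 12383 RPM, with oocyte 2 highest and oocyte 6 next at 8277 RPM. The other transcripts of this genome followed to different degrees. With the sum of the other rows of the list ATP6 had r = 0.9497 (rho 0.944; r = 0.947 without the 2 farthest oocytes), ND1 r = 0.809 (rho 0.727; r = 0.595) and ND6 r = 0.723 (rho 0.713; r = 0.482). For COX1 r was 0.406 (rho 0.357; r = 0.487) and for ND2 0.121 (rho 0.014; r = -0.284). ND3 was in the group of 97 rows, and ND1, ND2 and ND5 were in none of the 8 groups. COX1 and ND6 fell into a group of 9 rows with the G protein regulator RGS16 and TRIM32, highest in oocyte 9 and lowest in oocyte 11.

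The 5.8S rRNA rows were a separate axis. A group of 13 rows held 8 of the 9 abundant 5.8S rows, both rows of bta-mir-2887-2, the tubulin TUBB4B and the proteasome subunit PSMC2. Summed over its 9 rows, 5.8S had 908, 1950 and 4779 RPM as the lowest, median and highest oocyte, lowest in oocyte 6 and highest in oocyte 10. With the profile of the U1 and U3 group the sum had r = 0.191 (rho 0.049; r = 0.333), so these RNAs without an mRNA tail did not all move together.

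The other groups were small. The homeobox gene SIX3 (119, 230 and 497 RPM) headed a group of 9 rows, all with a symbol, with PSMA7, STAU1, which binds double-stranded RNA, and HSPB1, highest in oocyte 1 and lowest in oocyte 9. A group of 8 with MVP, the major vault protein (210, 296 and 511 RPM), CHRNA1 and FOXR1 was highest in oocyte 8 and lowest in oocyte 5. Another 8 rows held FMR1, the translational repressor of fragile X syndrome (871, 1972 and 3562 RPM), JARID2 of Polycomb complex 2, and CRABP2, highest in oocyte 4 and lowest in oocyte 6.

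Likeness between whole oocytes was taken over the 7114 rows that averaged 10 RPM or more. Spearman correlations of the 66 pairs ran from 0.830 (oocytes 3 and 11) to 0.916 (oocytes 8 and 9), with a median of 0.874. No column was identical to another. Of the 20 rows highest on average, 15 (oocyte 6) to 19 (oocyte 8) were among the 20 highest of a single oocyte.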

How the data were processed

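RNA of single oocytes was sequenced with CEL-seq2. Reads were matched by the authors to cDNA sequences, duplicates of 1 UMI within a gene were collapsed, and RPM values of 17071 rows were deposited. UMD3.1 is the build in the submitters' processing notes. For the aligner, none is given in the sources used here. All 24 sample columns were mapped by title, and the 12 non-injected columns were used. Symbols came with 13625 rows, 17 rows had symbols turned into dates, 3276 had an ID alone and 153 an RNA class. A symbol was shared by 669 rows. UMI counts were recovered by inverting a saturation correction for repeated UMIs (capacity 4048, found by a scan between 3900 and 4100, and not described in the sources used here). All values were then whole within 0.001. Values cover counting error of UMIs only where a counting CV is named.

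Rows were ranked by mean RPM, and spread was taken for means of at least 50 RPM. Groups came from average linkage on 1 minus rho, joined at a mean rho of at least 0.5. The principal components used log2(RPM + 5). Genes named are the 6 markers, the 20 highest rows with a symbol, the 12 highest and lowest spread ratios, up to 4 leading members per list, up to 6 rows per group and the 2 genes most like each marker; the other names were chosen after their values were seen. The list members and lists were chosen with earlier results of these data known, and COII was added to its list after the table was read. Python 3.11.15, numpy 2.4.6, pandas 2.3.3 and scipy 1.17.1 were used, and the steps were tested on simulated data. Alternatives were other scalings, filters, pseudocounts, thinning to equal depth and leaving out oocytes.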

Additional observations from a re-analysis of the deposited data

How the results depend on the processing

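Of 52 alternative values that did not leave out a single oocyte, 46 stayed near the value reported and 6 moved. A count was called moved at a ratio of 1.5 to the value reported, and a correlation at a shift of 0.1. Values called near could thus differ. The first principal component held 18.2% of the variance with a pseudocount of 1 RPM and 28.8% with 10 RPM, against 24.1%. With molecules thinned to 135858 per oocyte the second opposed group had 47 rows. With a spread ratio of at least 1.3 the opposed groups had 148 and 154 rows, and with at least 2 they had 24 and 13, as fewer or more rows entered by construction. Mean rho and the correlation between both profiles were recomputed on the original 97 and 77 rows, which were grouped on all 12 oocytes. Without the 2 oocytes farthest from the median the mean rho within the first group was 0.558. The correlation between both profiles was -0.940 after thinning and -0.948 without these oocytes, and -0.959 to -0.921 with each oocyte left out in turn. Leaving out each oocyte in turn gave 168 values near those reported. The re-formed groups then had 69 to 112 rows for the first and 58 to 100 for the second. The members changed more than these counts: 53 of the 97 and 44 of the 77 rows were shared without oocyte 1, 55 and 33 after thinning, and 49 and 54 without the 2 farthest oocytes. The number of rows with a spread ratio of at least 1.5 was 331 to 372 with single oocytes left out. It was 478 for means of at least 20 RPM and 240 for means of at least 100 RPM. After thinning it was 283, of which 242 were among the 353. After thinning 5073 rows were above 0 in all 12 oocytes, against 6430 as deposited. No paired analysis was possible because there was 1 group and no test. Sequence features were not run. The single-oocyte depth limits rows under 20 RPM, whose spread was close to that of counting.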

Other observations

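Genes of RNA interference and the piRNA pathway were present at low levels. The 22 matched rows took 0.0838% ± 0.00936 of the RPM (SD, n = 12), and 21 of them were above 0 in at least 1 oocyte. MAEL, a piRNA factor of germ cells, averaged 202 ± 59.5 RPM, the slicer AGO2 had 87.3, 172 and 263 RPM as the lowest, median and highest oocyte, DICER1 had 19.7, 121 and 161 RPM, and DROSHA had 69.2, 100 and 169 RPM. The antioxidant enzymes (17 rows) took 0.195% ± 0.0258, led by the peroxiredoxins PRDX1 (995 ± 222 RPM) and PRDX2 (416 ± 110 RPM).

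Glycolysis and the pentose phosphate pathway (21 rows) took 0.219% ± 0.0280. The pentose phosphate enzymes RPIA (994 ± 161 RPM) and PGD (300 ± 75.8 RPM) were above the glycolytic LDHA (259 ± 76.8 RPM) and PKM (205 ± 79.5 RPM) in mean RPM. Of the stress-related genes, GADD45A had 271 ± 108 RPM and DDIT3 114 to 194 RPM, while JUN ran from 32.1 RPM in oocyte 9 to 355 RPM in oocyte 5.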
